A study of Mus musculus with 32 samples.

Results

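Rn7sk is the mouse gene of the 7SK RNA, and its contacts with DNA were read here as every RNA-DNA interaction whose RNA tag was assigned to Rn7sk. RADICL-seq joins RNA to nearby DNA inside fixed nuclei through an adapter, and an interaction is 1 distinct pair of an RNA tag and a DNA tag. Of 25231081 interactions in 15 libraries, 6111 carried an RNA tag of Rn7sk, which was 1 of 17784 RNA genes in the files. R08 is a male line of mouse embryonic stem cells (mESC), and Oli-neu is a neural line derived from mouse oligodendrocyte progenitor cells and stands for these cells (mOPC). Each cell type is therefore represented by a single cultured line. The 4 groups of mESC libraries were 1FA (fixed in 1% formaldehyde, 3 libraries), 2FA (fixed in 2% formaldehyde, 3 libraries), ActD4 (5 µg/ml actinomycin D for 4 h before fixing in 1% formaldehyde, 2 libraries) and NPM (2 libraries). The mOPC libraries were 1FA (3 libraries) and NPM (2 libraries). NPM stands for non-protein mediated: after fixing in 1% formaldehyde, protein was digested under denaturing conditions and the crosslinks were reversed just before RNA was ligated. The 32 samples of the series are the RNA and the DNA entries of these 15 libraries, 1 of which was run again.

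7SK is a small nuclear RNA made by RNA polymerase III. Larp7 binds its end and Mepce caps it, and in this particle Hexim proteins hold P-TEFb, the kinase Cdk9 with a cyclin T, in an inactive state. Freed P-TEFb phosphorylates paused RNA polymerase II and its pausing factors, which lets the polymerase elongate. ActD4 blocks that elongation, so the libraries ask where 7SK RNA meets chromatin in both cell lines, with transcription stopped and with protein removed.

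The files list only those interactions that belong to a pair of transcript and 25-kb DNA bin called significant by the authors, and the pairs were called once for all replicates of a group. A bin missing from the list may still have been contacted, a file's total is not its depth, and the spread between replicates is narrowed by the shared list. Replicates were batches of cells of different passage number. The libraries held 251802 to 2832717 listed interactions. On the RNA side the lines matched their labels in part. In mOPC 1FA, 11 of 11 tested mESC marker transcripts were called lower in listed interactions than in mESC 1FA (43.0% of all transcripts were). Of 7 tested mOPC marker transcripts, 6 were called higher (34.5% of all transcripts were). Nkx2-2 and Sox8, markers of the oligodendrocyte lineage, were not listed in mOPC 1FA, and Pdgfra, the growth factor receptor that marks these progenitors, averaged 17.6 CPM in mESC 1FA and 3.58 CPM in mOPC 1FA. CPM is the count in parts per 1e+06 listed interactions of the library, after TMM scaling. Of 8 markers of fibroblasts, astrocytes and neurons, Rbfox3, Snap25 and Thy1 were listed in mESC 1FA and none in mOPC 1FA. The study itself counts Thy1, under the name Cd90, among its mESC markers.

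Rn7sk (ENSMUSG00000065037.1) lies on chromosome 9, 78175303 to 78175633, minus strand (mm10), and the annotation gives a single 331-base miscellaneous RNA there. The RNA tags mark which bases were read, and all 6111 of them were centred near the end of the RNA. The sequences below are shown because they hold nearly every tag. The first is the end of the RNA, bases 212 to 331, and its capitals mark the bases covered by 27-base windows that occur at 1 place in the genome with no second place at 1 mismatch (RefSeq, GRCm38.p6). The others are the windows centred on the most used bases, with that base in capitals.
end of Rn7sk: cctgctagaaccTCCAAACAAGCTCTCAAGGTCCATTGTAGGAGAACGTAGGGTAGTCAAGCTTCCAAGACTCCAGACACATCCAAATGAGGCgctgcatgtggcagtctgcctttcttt
window centred on base 241: aacaagctctcaaGgtccattgtagga
window centred on base 269: aacgtagggtagtCaagcttccaagac

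These windows lie at 78175380 to 78175406 and at 78175352 to 78175378 of chromosome 9, and 431 and 887 tags were centred on them over all libraries. Only 52 of the 305 windows of the RNA, 17%, were unique in this sense, and they form a run centred on bases 237 to 262 and another on bases 266 to 291. Of the 6111 tags, 6103 (99.9%) were centred on these 52 windows, none on the 3 bases between the runs, and 8 beyond the second run. The 223 windows before the first run had at least 2 places in the genome, counting those with 1 mismatch, with a median of 5 and a highest of 20 exact places. The authors kept only tags that mapped to a single place, so the earlier bases of 7SK could hardly be seen and no statement about them is possible.

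Within the readable end, the groups used the runs unequally. The first run held 42.3%, 32.8% and 25.6% of the tags in the mESC 1FA libraries and 51.2% and 53.5% in ActD4. It held 11.9% and 18.8% in mESC NPM. ActD4 thus lay above mESC 1FA and mESC NPM below it, without overlap. In mOPC the first run held 31.4%, 32.1% and 21.2% in 1FA, and the NPM libraries lay lower at 12.7% and 19.0%. The exact permutation test gave p = 0.2 for each of these 3 differences (two-sided, adjusted p = 0.4 over 6 comparisons), where the smallest p that 3 against 2 libraries allow is 0.1. The most frequent centre was base 240 in mESC 1FA, 2FA and ActD4, base 269 in mESC NPM and mOPC 1FA, and base 282 in mOPC NPM.

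**Figure D1:**
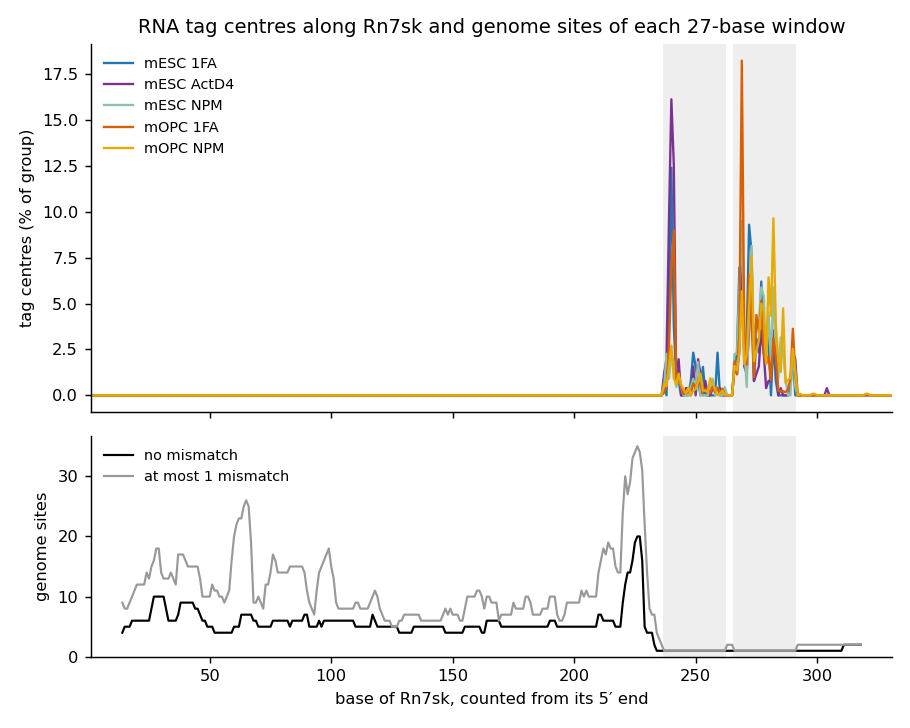
Upper panel: share of RNA tag centres (percent of the group's tags) by base of Rn7sk for 5 of the 6 groups, with 2FA not drawn. Lower panel: genome sites of the 27-base window centred on each base, with no mismatch and with at most 1. Grey bands mark the windows with 1 site, which hold 99.9% of all tags.

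The number of listed Rn7sk interactions differed between most groups by more than between replicates. These are counts of listed interactions only, and the totals recovered from the deposited p, described further on, gave smaller folds (3.37 in place of 40.3 between mOPC 1FA and mESC 1FA). The mESC 1FA libraries held 26, 64 and 39 listed Rn7sk interactions, which is 10.5, 26.9 and 14.7 CPM. The mOPC 1FA libraries held 1034, 979 and 2120, or 672, 735 and 1479 CPM. Every mOPC library lay above every mESC 1FA library, and the third mOPC library held about as many as the others together. The 2FA libraries held 46, 86 and 61 interactions (20.8, 43.2 and 24.6 CPM), which overlaps mESC 1FA. ActD4 held 168 and 86 (372 and 325 CPM) and mESC NPM 109 and 112 (167 and 132 CPM), both above mESC 1FA without overlap although their libraries were smaller. The mOPC NPM libraries held 719 and 462 (425 and 311 CPM), below mOPC 1FA in CPM without overlap. Ordered by mean CPM, mOPC 1FA (962 ± 449, SD, n = 3) came before mOPC NPM (368 ± 80.6, n = 2), ActD4 (349 ± 33.5, n = 2), mESC NPM (149 ± 25.1, n = 2), 2FA (29.5 ± 12, n = 3) and mESC 1FA (17.4 ± 8.53, n = 3). The neighbours mOPC NPM and ActD4, and 2FA and mESC 1FA, overlapped. In these bulk libraries, a share of cells with more 7SK and more 7SK per cell cannot be told apart.

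**Figure D2:**
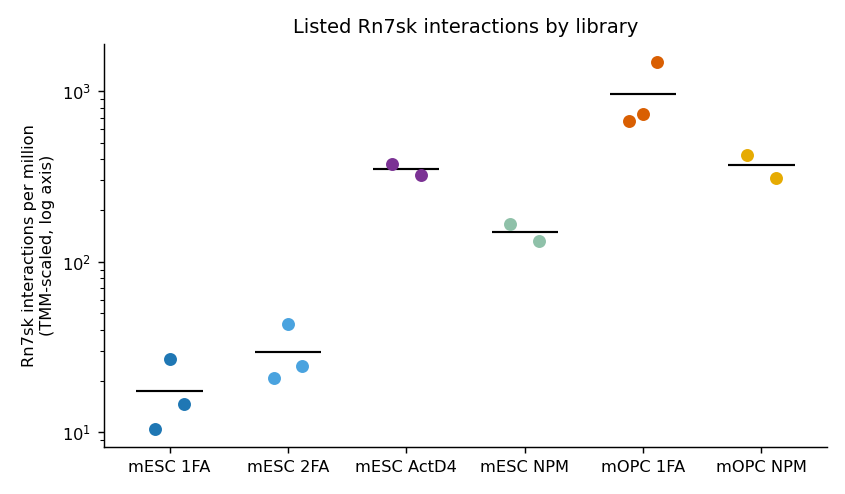
Listed Rn7sk interactions (TMM-scaled CPM, log axis) in each of the 15 libraries, with group means. The 3 mOPC 1FA libraries lie between 672 and 1479 and the 3 mESC 1FA libraries between 10.5 and 26.9.

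The fits across all transcripts give the size of these differences on the log2 CPM scale (limma, two-sided, Benjamini-Hochberg over all transcripts tested). Rn7sk was 5.82 higher in mOPC 1FA than in mESC 1FA (SE 0.40, adjusted p = 3.34e-06), in a comparison where 77.5% of 10242 transcripts were called, 34.5% higher and 43.0% lower. Against mESC 1FA it rose by 4.46 in ActD4 (SE 0.37, adjusted p = 2.84e-05), where 60.7% of transcripts were called, 19.4% higher and 41.2% lower. It rose by 3.27 in mESC NPM (SE 0.34, adjusted p = 4.26e-05), where 49.5% were called, 21.9% higher and 27.6% lower, and by 6.58 when contacts inside each transcript's own bin were left out. With total scaling the calls over all transcripts were 2603 higher and 5609 lower in mOPC 1FA, and 4192 higher and 1316 lower in mESC NPM. These comparisons share the mESC 1FA libraries as controls. With so many transcripts called, a call on Rn7sk alone says little, and the sizes are what sets it apart from the median transcript, which differed by -0.22, -0.31 and -0.01 in the same 3 comparisons.

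The effect of more formaldehyde was smaller. Rn7sk was 0.80 higher in 2FA than in mESC 1FA (SE 0.34, adjusted p = 0.38), in a comparison that called 3 of 9938 transcripts (0.0302%; 0.0201% higher and 0.0101% lower). An unadjusted p under 0.05 was found for 1146 of them. Libraries with the same replicate number deviated together here (r = 0.47, 0.30 and 0.51), so the numbers pair the samples, and with the replicate number as a block the same difference had an adjusted p of 0.0163. Each 2FA library was above the 1FA library of its number. In the fit that ignores the numbers, leaving out mESC 1FA replicate 1 gave a difference of 0.49, and leaving out mESC 2FA replicate 2 gave 0.497. With the block, 466 transcripts were called.

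The effect of NPM on Rn7sk differed between the cell lines, but its direction in mOPC turned when contacts inside the own bin were left out. In mOPC Rn7sk was 1.18 lower in NPM than in 1FA (SE 0.34, adjusted p = 0.0219; 55.5% of 10417 transcripts called, 28.9% higher and 26.6% lower), against a rise of 3.27 in mESC. The difference of these effects, tested as an interaction, was -4.47 (SE 0.57, adjusted p = 0.000186), where 33.0% of 12186 transcripts were called and 10.3% were called in that direction. The fall in mOPC depends on what stands in the total. With libraries scaled by their total it was -0.39 (adjusted p = 0.376, with 6157 transcripts called higher and 757 lower), and without contacts inside each transcript's own 25-kb bin Rn7sk was 3.34 higher in NPM (adjusted p = 0.00353), and in mESC the rise was then 6.58 (adjusted p = 0.000433). It also lost its call without mOPC NPM replicate 1 (adjusted p = 0.138) or without replicate 2 (adjusted p = 0.239). The own bin held 91.8% of all interactions in mOPC NPM and 16.2% in mOPC 1FA, so the choice changes the total that Rn7sk is measured against. In parts per 1e+06 trans interactions, those between chromosomes, Rn7sk had 3284, 3578 and 9103 in mOPC 1FA and 12185 and 5323 in NPM, and these ranges overlap. In mESC this measure was 156, 365 and 201 for 1FA, against 4844 and 3001 for NPM, without overlap.

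Between the lines without protein, Rn7sk was 1.5 higher in mOPC NPM than in mESC NPM (SE 0.24, adjusted p = 0.00492; 51.2% of 11039 transcripts called, 30.3% higher and 20.9% lower). This call was lost without mESC NPM replicate 2 (adjusted p = 0.0514) or without mOPC NPM replicate 1 (adjusted p = 0.0609). Without contacts inside each transcript's own bin the difference was 3.33 (adjusted p = 0.00119). With total scaling 2679 transcripts were called higher and 3239 lower here.

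**Figure D3:**
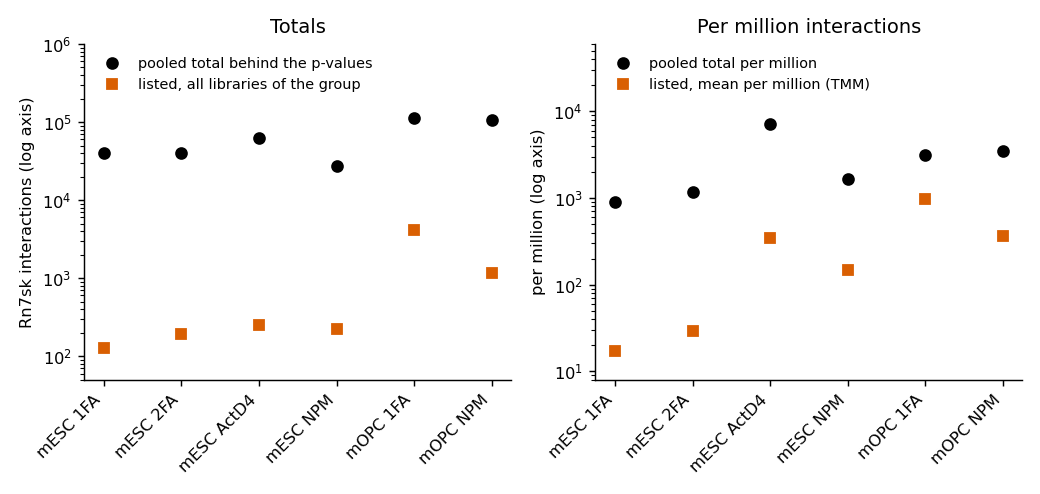
Left: Rn7sk interactions of each group, as the pooled total recovered from the deposited p-values and as listed (log axis). Right: the same scaled by all interactions, the listed value being the mean CPM of the libraries (log axis, no error drawn). The pooled totals run from 27018 to 111916, and fewer than 4133 interactions were listed in every group but mOPC 1FA.

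Listed interactions are a small and uneven part of what was captured. Each deposited p is a binomial tail that depends on the pooled number of interactions of a transcript and on the number of bins it touched, as the methods describe, and both whole numbers could be solved for Rn7sk in all 6 groups. The totals are therefore derived values, which hold only as far as the deposited p follow that description. The solutions gave 40040 Rn7sk interactions in 30489 bins in mESC 1FA, 40488 in 30744 bins in 2FA, 62459 in 40936 bins in ActD4 and 27018 in 22819 bins in mESC NPM. In mOPC they gave 111916 interactions in 56281 bins in 1FA and 105033 in 60317 bins in NPM. Before the significance call, Rn7sk tags were thus paired with DNA in 22819 to 60317 bins of 25 kb, with fewer than 2 interactions per bin in every group. These totals include pairs that were not called significant, and how many of them are spurious was not tested. The deposited p counts identical lines as separate interactions, and counted so Rn7sk had 132 listed interactions in mESC 1FA, 197 in 2FA, 269 in ActD4, 281 in mESC NPM, 4195 in mOPC 1FA and 1428 in mOPC NPM. On this count the share of its interactions that reached the list was 0.330% in mESC 1FA, 0.487% in 2FA, 0.431% in ActD4, 1.04% in mESC NPM, 3.75% in mOPC 1FA and 1.36% in mOPC NPM. Over all transcripts solved, the share listed was 17.6%, 19.7%, 7.24%, 5.78%, 17.7% and 7.03% in the same order. Rn7sk was the 66th of 10726 transcripts by recovered interactions in mESC 1FA but the 6240th by listed ones, and in mOPC 1FA it was the 10th and the 231st of 8869.

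On the recovered totals the differences between groups were smaller. Relative to all interactions of the transcripts solved in both groups, Rn7sk was 3.37-fold higher in mOPC 1FA than in mESC 1FA, where listed interactions give 40.3-fold. It was 6.72-fold higher in ActD4 (23.3-fold listed), 1.66-fold in mESC NPM (13-fold listed) and 1.33-fold in 2FA (1.75-fold listed), each against mESC 1FA. In ActD4, 99.98% of transcripts had a smaller fold than Rn7sk, and in mOPC 1FA 92.1% had. Between mOPC NPM and mOPC 1FA the recovered fold was 0.983, close to no difference, and 37.2% of transcripts had a smaller fold. These are single pooled values without replicates, so no test was made.

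The DNA side of Rn7sk was mostly on other chromosomes. Its trans share was 88.5%, 93.8% and 79.5% in the mESC 1FA libraries, 93.6%, 97.0% and 97.0% in mOPC 1FA, and 69.7% to 95.7% over the other libraries. All other listed interactions of the same groups were trans in 4.22% to 12.4% on average. The trans share was higher for Rn7sk in 10 of 10 mESC libraries (mean difference 78.7 percentage points, exact paired permutation test, p = 0.00195, adjusted p = 0.00391) and in 5 of 5 mOPC libraries (p = 0.0625, the smallest that 5 pairs allow). These libraries come from several groups, and those of a group share their list of pairs. Here and in the paired tests below, p therefore does not measure the spread between independent replicates. Other small RNAs also reached other chromosomes: 93.0% of the interactions of Rmrp, the RNA of RNase MRP, were trans in mESC 1FA, and for Snord118, the U8 RNA of ribosomal RNA processing, the share was 92.2%.

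The gene's own bin (chromosome 9, 78175001 to 78200000) was among the 3 most contacted bins of every group, and its mean share was below that of all other transcripts in each group, though not in 2FA replicate 3. Its contacts numbered 8 in mESC 1FA, 30 in 2FA, 26 in ActD4 and 56 in mESC NPM, and in mOPC 70 of 4133 in 1FA and 162 of 1181 in NPM. Per library this share ran from 4.69% to 7.69% in mESC 1FA and from 4.35% to 21.3% in 2FA, and ActD4 had 8.93% and 12.8%, mESC NPM 20.5% and 30.3%. ActD4 lay above mESC 1FA without overlap (exact permutation test, p = 0.1, adjusted p = 0.15), but the difference turned to -6.35 percentage points without the ribosomal RNA gene bin and to -10.5 with each bin counted once. The mOPC libraries had 0.896% to 4.06% in 1FA and 13.2% and 14% in NPM. NPM was higher without overlap in both lines (exact permutation test, p = 0.1 each, adjusted p = 0.15), but with each bin counted once the difference turned to -2.58 percentage points in mESC and was 0.948 in mOPC. All other transcripts were also higher in NPM, with a mean own-bin share of 15.8% for mESC 1FA against 92.3% for mESC NPM. Most of these DNA tags lay on the RNA tag itself: 75% in mESC 1FA and 91.4% to 100% in the other groups were centred within 20 bases of the RNA tag, whereas 3.68% to 10.3% of the own-bin interactions of all transcripts were. Whether these are contacts or tags read from a single molecule was not tested.

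Elsewhere on chromosome 9, mESC 1FA had 7 interactions 0.302 to 0.321 Mb away, in a bin with Eef1a1, the translation elongation factor gene, 3 of them in the gene itself, and the other mESC groups had none. In mOPC 1FA, 80 interactions lay beyond 1 Mb, up to 43.6 Mb away, with 22, 20 and 38 per library, and mOPC NPM had 9 and 4. No mESC library had any beyond 1 Mb.

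The leading target in each mESC group, summed over its libraries, was a bin with a ribosomal RNA gene copy. In mESC NPM replicate 1 alone, Rn7sk's own bin held more, 33 against 29. How many copies of the gene give tags that map to this bin was not tested. No recurrent bin was compared with a repeat annotation. This bin, chromosome 17, 39825001 to 39850000, holds Gm26917, annotated as a long noncoding RNA, and CT010467.1, annotated as ribosomal RNA. It took 19 of 26, 45 of 64 and 18 of 39 Rn7sk interactions in the mESC 1FA libraries, which is 73.1% (95% Wilson interval 53.9 to 86.3), 70.3% (58.2 to 80.1) and 46.2% (31.6 to 61.4). In ActD4 it took 22.6% and 14%, below mESC 1FA without overlap, and in mESC NPM 26.6% and 50.9%, which overlaps. In mOPC 1FA it took 1.45%, 2.55% and 3.07% (exact permutation test against mESC 1FA, p = 0.1, adjusted p = 0.2). The bin was singled out because it led the mESC lists, so no p given for it here or below is independent support. As a count, it held 82 interactions in mESC 1FA and 105 in mOPC 1FA, so its share fell while the rest of the list grew. Intervals of this kind cover counting error only.

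This bin was shared with many transcripts. In mESC 1FA, 1090 of 14248 listed transcripts (7.65%) had it on their list, in mESC NPM 2166 of 11679 (18.5%) and in mOPC 1FA 322 of 11681 (2.76%). Among trans interactions of mESC 1FA it took 71.9% of Rn7sk and 6.39% of all others (higher for Rn7sk in 3 of 3 libraries, p = 0.25, the smallest exact p). Most of those others were Gm22973, a small nuclear RNA, and Malat1, a long noncoding RNA. They had 291356 and 134397 of the 465524 trans interactions of mESC 1FA. The bin took 0.0724% and 0.471% of theirs, and the remaining RNAs without both were not compared. In mESC NPM the order was turned, with 51.1% for Rn7sk and 79.8% for all others. Gm22973 had 218 of the 45348 trans interactions there. Other small RNAs met this bin to unlike degrees: it took 75% of the interactions of Rnu3a, the U3 RNA of ribosomal RNA processing, in mESC 1FA and 80.8% in mOPC 1FA. For Snord118 the shares were 34.1% and 56.2%, and for Gm22973 it was 0.0708% in mESC 1FA. Of the pooled Rn7sk interactions the bin took 63.6% in mESC 1FA and 2.54% in mOPC 1FA.

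The list of bins was short in mESC and long in mOPC. Rn7sk had 7 listed bins in mESC 1FA, 10 in 2FA, 22 in ActD4 and 8 in mESC NPM, but 330 in mOPC 1FA and 79 in mOPC NPM. Per library these were 6, 7 and 7 in mESC 1FA and 311, 304 and 329 in mOPC 1FA (exact permutation test, p = 0.1, the smallest that 3 against 3 allow). A library can show only bins on its group's shared list, so this p says nothing about the spread between replicates. With each library thinned to the size of the smallest one compared, mOPC 1FA had 18.7 bins more. Thinning drew from interactions already listed and pairs were not called again, so it cannot show how depth shaped the lists. Of 396 bins listed in any group, 3 were listed in all 6: the ribosomal RNA gene bin, the gene's own bin, and chromosome 11, 3175001 to 3200000, at Sfi1, a centrin-binding protein, and Drg1, a GTP-binding protein, with 8 interactions in mESC 1FA, 10 each in 2FA and ActD4, 14 each in mESC NPM and mOPC 1FA and 30 in mOPC NPM. The lists of mOPC 1FA and NPM shared 37 bins, which is 11.2% of the first and 46.8% of the second. Bins on the Rn7sk list were also busy for other RNAs. The median number of transcripts with such a bin on their list was 6.5 in ActD4 and 38 in mESC 1FA, the lowest and highest of the groups, against 1 to 3 for all listed bins.

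**Figure D4:**
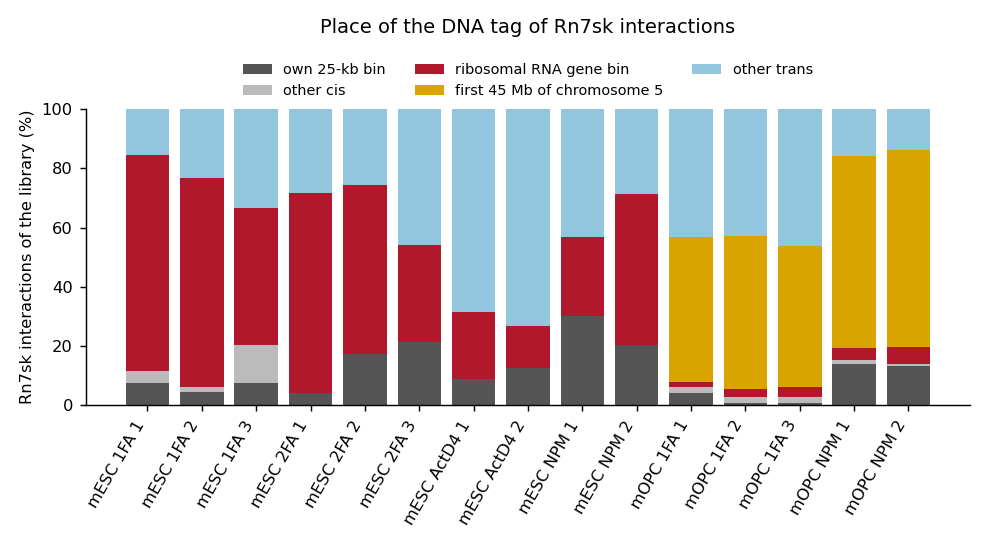
Share of Rn7sk interactions (percent of the library) by place of the DNA tag, as a stacked bar for each of the 15 libraries. The ribosomal RNA gene bin holds 46.2% to 73.1% in mESC 1FA, and the first 45 Mb of chromosome 5 hold 47.5% to 66.5% in the mOPC libraries.

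In mOPC the contacts gathered on the first 45 Mb of chromosome 5, a stretch chosen from earlier results of these data. This stretch took 49.0%, 51.7% and 47.5% of Rn7sk interactions in the mOPC 1FA libraries and 64.8% and 66.5% in mOPC NPM, in 142 of 330 and 66 of 79 listed bins. No mESC library had a listed Rn7sk interaction there. NPM lay above 1FA without overlap (exact permutation test, p = 0.1, adjusted p = 0.3). Other transcripts were drawn there too in this line: the stretch took 9.65% of all other trans interactions in mOPC 1FA and 52.1% in mOPC NPM, and 0% to 0.975% on average in the mESC groups. The difference between Rn7sk and the rest was 41.9 percentage points in mOPC 1FA (3 of 3 libraries) and 24.8 in mOPC NPM (2 of 2), with p = 0.0625 over the 5 libraries, the smallest exact p they allow. As the stretch was chosen from these data and each group shares its list, neither p given for it is independent support. Without Malat1, an abundant nuclear long noncoding RNA, the rest of mOPC 1FA had 28.4%, 26.2% and 25% of its trans interactions there, still below Rn7sk with 52.4%, 53.3% and 49.0%. The number of copies of this stretch in Oli-neu is not given in the sources used here, and its part in the result was not tested.

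The genes met most by Rn7sk in mOPC 1FA reflect this stretch. Lhfpl3, a tetraspan membrane protein gene that the study counts among its mOPC markers (chromosome 5, 22746059 to 23275597), had 72, 68 and 134 interactions, and Srpk2, a kinase of splicing factors, had 17, 27 and 46. They were followed on the same stretch by 5031425E22Rik with 62 in all, Kmt2e, of the lysine methyltransferase family, with 47, Babam2, of a deubiquitinase complex, with 45, Wdr1, which aids actin turnover, with 40, Zfyve28 with 37 and Poln, a DNA polymerase, with 34. Thus 8 of the 10 leading genes lie there, and the others are Gm26917 with 77 and Rn7sk itself with 70. In mOPC NPM Rn7sk led with 161, then Plb1, a phospholipase, with 23 and 20 and Sfi1 with 25 and 15. Lhfpl3 had 18 and 17 there, and Malat1 itself, on chromosome 19, had 20 and 6.

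In ActD4 the list reached other genes than in mESC 1FA. After Gm26917 (32 and 9), Rn7sk (15 and 10) and Sfi1 (12 and 7) came CT010467.1 with 6 and 3, Usp7, a deubiquitinase, with 6 and 2, Sap30bp with 3 and 4, Sez6 with 5 and 1, Drg1 with 4 and 2, Rpp14, a subunit of RNase P, with 4 and 2, and Polr2a with 5 and 1. Polr2a, on chromosome 11 from 69733997 to 69758637, encodes the largest subunit of RNA polymerase II, the enzyme that P-TEFb acts on. Apart from the first genes these are counts of 1 to 6 per library and their differences from 1FA, where most were not listed, were not tested. Some bins on the list carry no gene in the file. They include chromosome 11, 109000001 to 109025000, where mESC 1FA had 7 interactions and mESC NPM 17, and chromosome 6, 3200001 to 3225000, with 8 in mESC NPM. All 8 DNA tags of the latter fell inside a 901-base stretch that is 98.2% identical to the ribosomal RNA gene bin. The former matched that bin over 2818 bases at 88.5% identity, and none of its 40 tags over all groups fell inside this match. Only the first match found for each bin was examined.

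Rn7sk DNA tags lay in 409 genes in mOPC 1FA, in 7 to 48 genes in the mESC groups and in 70 in mOPC NPM, and some of these belong to the lists used here. Ppm1g, the phosphatase that frees P-TEFb, had 17 interactions in mOPC 1FA, in 3 of 3 libraries, and Nelfa, a subunit of the pausing complex NELF, had 4 in 2 of 3. Both lie on the first 45 Mb of chromosome 5. Hnrnpa1, a protein of the 7SK particle, had 2 in 1 library. Of the mOPC marker list used here, which does not hold Lhfpl3, Cspg4, which encodes the NG2 proteoglycan, had 9 in 3 of 3 libraries and Sox10, a transcription factor of the lineage, 4 in 2 of 3. In mESC the only list gene met was Polr2a in ActD4.

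Most Rn7sk contacts fell within genes, as did those of other RNAs. Among trans interactions the mean share was 73.9% for Rn7sk and 73.1% for the others in mOPC 1FA, but without Malat1 the others had 77.7%, 78.4% and 80.1%, above Rn7sk with 73.6%, 75.3% and 72.8% in each library. In mOPC NPM the order also turned without Malat1, to 74.7% and 73.8% for the others and 67.3% and 72.5% for Rn7sk. With Malat1 included, the pair of values was 92% and 74.0% for mESC 1FA (higher for Rn7sk in 8 of 10 mESC libraries, exact paired permutation test, p = 0.0273, adjusted p = 0.0547) but 84.8% and 93.4% for mESC NPM. Most of the others of mESC 1FA were Gm22973 and Malat1, and the remaining RNAs were not compared. Within the bins listed for Rn7sk the group means differed by -2.01 to 0.701 percentage points and single libraries by -4.82 to 2.79. Over all Rn7sk interactions the share was 82.1% to 92.3% in mESC 1FA and 73.2% to 75.8% in mOPC 1FA, without overlap (exact permutation test, p = 0.1, adjusted p = 0.6), but without the ribosomal RNA gene bin mOPC was 5.26 percentage points higher. Contacts within 2 kb of a transcription start took 3.85%, 1.56% and 0% in mESC 1FA, which is 2 interactions in all. They took 13%, 8.14% and 4.92% in 2FA and 26.2% and 27.9% in ActD4. Both lay above mESC 1FA without overlap (exact permutation test, p = 0.1, adjusted p = 0.15 each). With the ribosomal RNA gene bin left out, mESC 1FA had 14.3%, 5.26% and 0% of 7, 19 and 21 interactions, and 2FA had 40%, 18.9% and 7.32% of 15, 37 and 41. These groups overlap, though each 2FA library lay above the 1FA library of its number. ActD4 stayed above mESC 1FA with 33.8% and 32.4%. In mOPC they took 20.9%, 17.7% and 21.6% in 1FA and 5.70% and 7.79% in NPM, also without overlap (exact permutation test, p = 0.1, adjusted p = 0.15), while mESC NPM had 4.59% and 4.46%. Without that bin mESC NPM had 6.25% and 9.09%, which overlaps mESC 1FA.

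Set against the other RNAs, the promoter share of Rn7sk was lower in some groups and higher in others. Among trans interactions it was 1.45% for Rn7sk and 16.6% for all others in mESC 1FA, and 9.92% and 19.3% in 2FA. Most of these others were Gm22973 and Malat1, with 272685 and 44668 of 345633 trans interactions in 2FA. The values therefore set Rn7sk mainly against both, and the remaining RNAs were not compared. In ActD4 the promoter share was 30.4% against 20.4% and in mOPC 1FA 20.3% against 15.6%, higher for Rn7sk in 2 of 2 and 3 of 3 libraries (exact p = 0.5 and 0.25, the smallest these numbers allow). The NPM means were 6.10% against 2.65% for mESC and 7.90% against 6.67% for mOPC, so in mOPC the other RNAs were lower in NPM as well. Without Malat1 the others of mOPC NPM had 7.30% and 8.18%, against 6.73% and 9.07% for Rn7sk, which is no single direction. When the others were taken only from the bins listed for Rn7sk, without the ribosomal RNA gene bin and mitochondrial DNA, the difference was 1.52 percentage points in mOPC 1FA (3 of 3 libraries, exact p = 0.25) and 5.27 in ActD4 (2 of 2, exact p = 0.5). In mESC 1FA the libraries differed by 13.8, -10.3 and -7.55 (mean -1.37, SD 13.2) and in 2FA by 17.5, 0.629 and -18.9 (mean -0.25, SD 18.2), with 3 to 25 Rn7sk interactions behind each value, so these means cover both directions. Over all trans interactions each of these 6 libraries was below the others. Over the 10 mESC libraries the exact paired permutation test gave p = 0.832 within shared bins (mean difference 0.756 percentage points, SD 11.2, adjusted p = 0.832) and p = 0.191 over all trans interactions (-4.66, SD 10.6, adjusted p = 0.191).

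**Figure D5:**
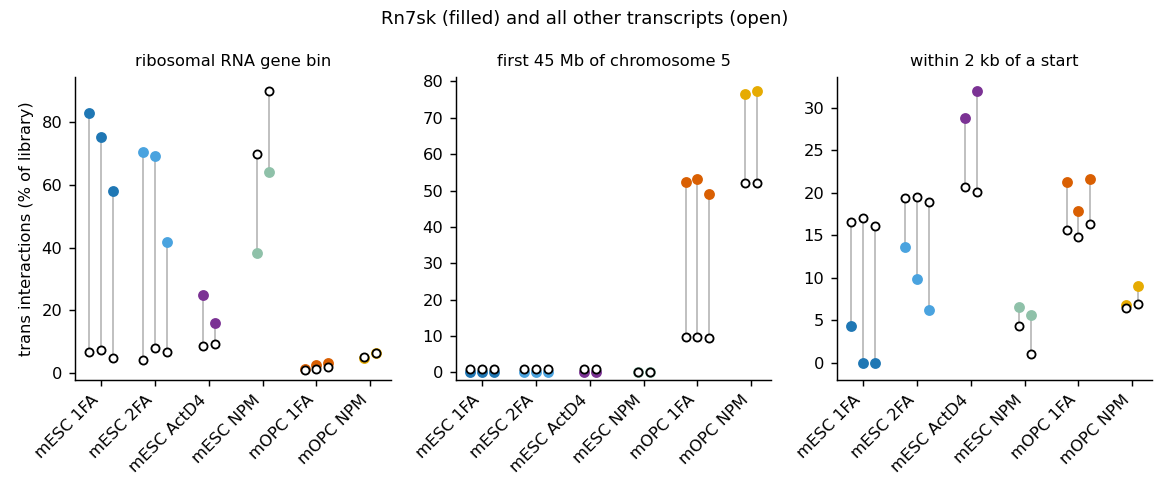
Share of trans interactions (percent) of Rn7sk and of all other transcripts of the same library, by place of the DNA tag, with lines joining the values of a library. Rn7sk lies above the others at the ribosomal RNA gene bin in mESC 1FA (71.9% against 6.39%) and on the first 45 Mb of chromosome 5 in mOPC 1FA (51.6% against 9.65%). The others are mostly Gm22973 and Malat1 in mESC 1FA and mostly Malat1 in mOPC 1FA.

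The other RNAs of the pathway were followed in the same fits. Their values are listed interactions of each transcript, which depend on the pairs called in each group, and no protein was measured. In ActD4, where 19.4% of all transcripts were called higher and 41.2% lower, 11 of 13 transcripts of pausing and elongation factors rose and 2 fell, with a median of 1.42 on the log2 scale where all transcripts had -0.31. Among them were Polr2a (1.80, SE 0.18, adjusted p = 8.2e-05), Nelfb (2.00, adjusted p = 0.00086) and Nelfcd (2.09, adjusted p = 0.00075), subunits of NELF, and Supt5 of the pausing factor DSIF (0.59, adjusted p = 0.047). Some rises rest on few listed interactions in ActD4, with 13 each for Paf1 and Supt4a and 14 for Nelfe. There 7 listed interactions meant 10.1 CPM (Ell3), against 0.942 CPM in mESC 1FA (Hexim2). Low transcripts can thus read as higher in ActD4 once listed, and this was not tested here or in the lists below. Nelfa was called lower, with 192 listed interactions in mESC 1FA and none in the smaller ActD4 libraries. No fold is given, since the fitted one depends on the prior count, and a transcript that is not listed may still have been captured. Of 13 P-TEFb and super elongation complex transcripts 3 rose and 5 fell, close to the shares of all transcripts. Those that rose include Cdk9, the kinase itself (2.47, adjusted p = 0.00022), and those that fell include its cyclin Ccnt1 (-0.82, adjusted p = 0.0032). Of 10 transcripts of the 7SK particle and its release factors 4 rose and 4 fell, with a median of 0.02, or 4 and 2 with total scaling. Jmjd6, a factor of P-TEFb release, rose by 2.73 (adjusted p = 6.4e-05), Mepce, the capping enzyme of 7SK, by 1.17 (adjusted p = 0.016), and the splicing factors Srsf1 by 0.75 and Srsf2 by 1.06. Mepce had only 12 listed interactions in ActD4 and 59 in mESC 1FA. The RNA-binding proteins Hnrnpa1 (-1.24), Hnrnpa2b1 (-0.48), Hnrnpr (-0.85) and Syncrip (-0.77) fell.

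Most of the tested small noncoding RNAs moved with Rn7sk in ActD4, but only 7 of the list's 23 members passed the count filter. Rpph1 and Rny1, which were not tested, had 23 and 13 listed interactions in mESC 1FA and none in the smaller ActD4 libraries. Gm22973, which was not called, had a mean of 39793 CPM in mESC 1FA and 42549 CPM in ActD4. Of 7 tested, 6 rose and none fell (median 2.41), where 19.4% of all transcripts rose and 41.2% fell: Rmrp by 2.40 (adjusted p = 2.6e-05), Rnu3a by 3.06 (adjusted p = 1.3e-05), Snord118 by 3.89 (adjusted p = 3e-05), Snord13 by 2.41, Rny3, a Y RNA, by 2.59 and Rnu73b by 1.51, all less than the 4.46 of Rn7sk. Between the lines they moved both ways. In mOPC 1FA, 2 of 7 were higher than in mESC 1FA and 4 lower, not far from the 34.5% and 43.0% of all transcripts. Rny3 was higher by 2.94, and Snord118 (-1.78), Snord13 (-3.30) and Rnu3a (-1.77) were lower. Rmrp had a mean of 345 CPM in mESC 1FA and 613 CPM in mOPC 1FA. In mESC NPM 4 of 9 rose and 2 fell (21.9% and 27.6% of all transcripts), and in mOPC NPM none of 7 rose and 4 fell against mOPC 1FA (28.9% and 26.6%), or 1 and 2 with total scaling. RNA polymerase III and promoter factors, which make 7SK and its like, were mixed: 7 of 18 rose and 3 fell in ActD4 (19.4% and 41.2% of all transcripts), and 4 of 17 were higher and 9 lower in mOPC 1FA (34.5% and 43.0%, or 1 and 9 transcripts of the list with total scaling), with Ssb, the La protein that binds new polymerase III transcripts, up by 1.95 and 0.87.

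Few interactions of the core of the 7SK particle were listed. Larp7 was not listed in mESC 1FA or ActD4 and averaged 2.02 CPM in mOPC 1FA, and Hexim1 had 18 interactions in mESC 1FA and none in mOPC 1FA. Of 10 tested transcripts of the particle and its release factors, 4 were higher and 2 lower in mOPC 1FA (34.5% and 43.0% of all transcripts), led by Ppm1g (2.46, SE 0.19, adjusted p = 6.6e-06). With libraries scaled by their total, 1 was higher and 5 were lower. In mOPC NPM, 4 of 12 rose and 2 fell against mOPC 1FA (28.9% and 26.6% of all transcripts), and in mESC NPM 6 of 11 rose and 1 fell (21.9% and 27.6%). With total scaling 9 of these 12 were higher and 1 lower, and 9 of these 11 higher and 1 lower, while the median of all transcripts moved from 0.17 to 0.95 in mOPC NPM and from -0.01 to 0.51 in mESC NPM. The calls on P-TEFb and super elongation complex transcripts in NPM moved with the scaling, which shifts all transcripts alike. With TMM, 7 of 13 were lower in mESC and none higher (27.6% and 21.9% of all transcripts), and 7 of 14 were lower in mOPC and 1 higher (26.6% and 28.9%). With total scaling 3 were lower and 2 higher in mESC, and in mOPC none lower and 4 higher. Of all transcripts, more were then called higher than lower in both lines, as given above. In 2FA no transcript of the pathway lists was called. With the replicate block 2 pausing and elongation transcripts were lower, and outside the pathway lists 2 mESC markers were higher.

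The transcripts whose level ran most like that of Rn7sk over the 15 libraries, among 5228 with a mean of at least 50 interactions, were Api5 (r = 0.94), Hadha (r = 0.94), Ino80dos (r = 0.93), Nfix (r = 0.93) and Scamp2 (r = 0.93). All 5 had their lowest group means in mESC 1FA and 2FA and their highest in mOPC 1FA. The libraries of a group share their pair list and scaling, so these correlations describe the 6 groups more than 15 independent points.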

How the data were processed

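According to the methods, the authors took 27-base tags from both ends of each read, filtered out ribosomal RNA, collapsed PCR duplicates, aligned RNA and DNA tags on their own to mm10 with BWA (0.7.15-r1140), kept unique alignments and assigned tags by their centre, RNA tags by strand. The deposited p-value of each pair of transcript and 25-kb bin is a one-sided binomial p made by the authors on pooled replicates, and pairs with a Benjamini-Hochberg adjusted p under 0.05 were deposited.

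From these tables, lines of 1 tag pair were merged into 1 interaction and interactions were counted per transcript and library. Counts of the 15 libraries were scaled by TMM, transformed to log2 CPM with a prior count of 0.5 and tested with limma (3.58.1, R 4.3.3) for transcripts with at least 10 interactions in as many libraries as the smaller group has and 15 in all, fitted on the groups compared. No file gives a table of counts, so no count model was run. Shares were compared over libraries by exact permutation tests, and shares of single libraries carry 95% Wilson intervals. Pooled totals were solved from the deposited p. Windows of 27 bases were searched in GRCm38.p6. Python 3.11.15 with scipy 1.17.1 and blastn 2.17.0+ were used. Tested on simulated data, the fits recovered 92.0% to 99.5% of changed transcripts, and 2.09% to 7.58% of their calls were false, above the threshold of 5% in 4 of 6 comparisons. The simulated counts were independent, with a common dispersion and few transcripts changed. These rates therefore need not hold for the listed counts. Of 17784 RNA genes, 17501 were matched to GENCODE M21, which gave gene positions and transcription starts here. The methods name release M14, and the releases were not compared.

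The genes named are Rn7sk, up to 10 DNA genes and bins per group with the most interactions and seen in every library, the 5 transcripts most alike and the members of the pathway lists. Rn7sk and all lists were chosen with earlier results of these data known. Replicate numbers pair the samples in 2FA against mESC 1FA only, where the deviations correlated at 0.30 to 0.51. Alternatives covered scaling, filters, priors, weights, the bins counted, the threshold and each library left out. Leaving out the ribosomal RNA gene bin, counting identical lines separately and the denominator of the pooled fold were added after seeing the data.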

Additional observations from a re-analysis of the deposited data

Results flagged for a closer look

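The effect of NPM on the listed interactions of Rn7sk differed between the lines by -4.47 on the log2 scale (limma, SE 0.57, adjusted p = 0.000186), with a rise of 3.27 in mESC and a difference of -1.18 in mOPC. The difference ranged from -4.86 to -4.12 with single libraries left out and was -3.05 without each transcript's own bin. On the pooled totals derived from the deposited p, the NPM change was 0.73 in mESC and -0.02 in mOPC on the log2 scale, without replicates. The share of Rn7sk contacts within 2 kb of a transcription start went from 20.1% to 6.75% in mOPC (-13.31 percentage points) and from 1.80% to 4.53% in mESC, without overlap of the libraries in either line. Without the ribosomal RNA gene bin the mESC libraries overlapped (0% to 14.3% in 1FA, 6.25% and 9.09% in NPM), with a mean difference of 1.15 percentage points. Among trans interactions without that bin and mitochondrial DNA, the mESC 1FA libraries had 33.3%, 0% and 0% of 3, 12 and 10 interactions. The mESC NPM libraries had 4.65% and 11.1% of 43 and 27, so these values show no single direction. The 1.80% of mESC 1FA rests on 2 interactions. Among trans interactions all other transcripts went from 15.6% to 6.67% in mOPC and from 16.6% to 2.65% in mESC. In mESC these others differed in make-up, with Gm22973 having 291356 of 465524 trans interactions in 1FA but 218 of 45348 in NPM. The number of listed bins went from 315 to 79 in mOPC (-236) and from 6.67 to 8 in mESC. For the promoter share and the bins the difference between the lines was not tested.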

How the results depend on the processing

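Over 612 alternative values of 66 results, 569 kept their direction and side of the threshold, 22 moved, 13 reversed, 7 became weaker and 1 stronger. With the replicate block the 2FA difference of 0.80 reached an adjusted p of 0.0163, and 2 pathway transcripts were called against 0 without it. The other comparisons share only replicate numbers (correlations of -0.11 to 0.22), and the block left each of their Rn7sk calls in place. The mOPC NPM difference was -0.39 with total scaling, -1.004 with every line counted and -0.96 with identical lines kept, none of them called, and 3.34 without the own bin. Leaving out single libraries gave -1.44 to -0.83 there and 1.27 to 1.73 between the NPM groups. Reversals of shares, in percentage points, were as follows. The trans share of mESC NPM against 1FA was 17.7 with each bin counted once and 6.56 without the own bin. For mOPC NPM against 1FA these were 0.329 and 0.981, and between the NPM groups the share without the own bin was -1.23. The own-bin share of ActD4 was -10.5 with each bin once and -6.35 without the ribosomal RNA gene bin, and that of mESC NPM -2.58 with each bin once. The share beyond 1 Mb in mOPC NPM was 0.156 at a deposited adjusted p under 0.01. The genic share of mOPC was 5.26 without the ribosomal RNA gene bin. The promoter share between the NPM groups was -4.99 with each bin once and -0.571 without that bin. Transcripts called in 2FA numbered 3, or 0 with a count minimum of 20, 1991 with no filter, 466 with the block and 23 with all libraries in 1 fit. With no filter 10169 of 14223 tested were called in ActD4, 8799 of 14550 in mESC NPM, 9031 of 14998 in mOPC NPM against 1FA and 9166 of 15723 between the NPM groups. Without the own bin 2834 of 6391 and 616 of 1267 were called in the last 2, where the settings reported call 5780 of 10417 and 5652 of 11039, so fewer transcripts were tested there. Few Rn7sk interactions per mESC library limit the precision of their shares.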
